A study of Homo sapiens with 12 samples.

Results

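CPSF6 was silenced in HepG2 cells, and the steady-state mRNA of these cells was compared with that of control cells before transcription was blocked. The comparison used the 4 libraries labelled 0 h, of 12 in all: 2 from cells transfected with CPSF6 siRNAs (siCPSF6) and 2 from cells transfected with the control siRNA (siNC). HepG2 is an established human liver cancer cell line with many hepatocyte features. All cells were transfected in 12-well plates, cultured for 48 h, given actinomycin D, an inhibitor of transcription, at 5 µg/ml and harvested with Trizol after 0, 3 or 6 h. ERCC spike-ins, synthetic RNAs of known amount, went into 5 µg of total RNA before a strand-keeping kit turned it into mRNA libraries. Each group had 2 biological replicates per the design text. The siCPSF6 group is a single siRNA condition, so effects of losing CPSF6 and other effects of the siRNAs cannot be told apart.

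CPSF6, NUDT21 and CPSF7 are the subunits of cleavage factor Im (CFIm), which binds UGUA elements upstream of poly(A) sites and helps the cleavage and polyadenylation machinery choose where an mRNA ends. CFIm is known for favouring distal poly(A) sites, so cells that lack NUDT21 or CPSF6 often use proximal sites and make mRNAs with shorter 3′ UTRs. CPSF6 also carries an RS-like domain and takes part in mRNA export, and NUDT21 forms the dimer to which CPSF6 or CPSF7 attaches.

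The deposited values were normalized counts, scaled to the same upper quartile in every library, and TPM, which also divides by transcript length. Normalized counts summed to 19539208 and 19133288 in the siNC libraries and to 20546598 and 20170792 in the siCPSF6 libraries. These totals are of scaled values, so the read depth is not known from them. Replicates correlated at Pearson's r = 0.993 in either group across genes, and the first principal component of the 4 libraries, with 82.4% of the variance, separated the siRNAs. The second, with 10.7%, separated replicate 1 from replicate 2. The 9 hepatocyte markers were all measured, with a summed TPM of 21370.6 and 19894.8 in the siNC and 18662.8 and 18000.8 in the siCPSF6 libraries. ALB, the gene of albumin, was at 4247 and 4060 TPM in siNC and at 4134 and 4086 TPM in siCPSF6. Of 21 stromal, endothelial and immune markers, 13 had a row and 8 passed the filter, and their summed TPM was 571.6 and 428.8 in siNC and 429.9 and 294.6 in siCPSF6, most of it LYZ. COL3A1, the fibroblast collagen gene, was listed at 0 in all 4 libraries, and CDH5 and VWF, which mark endothelium, were at most at 0.0450 and 0.0244 TPM. Of the 8 tested in normalized counts, 2 were higher and 2 lower (25% each), near the shares of all genes (21.8% and 21.1%). Higher were CD14, a monocyte marker, from 36 and 34 to 100 and 110, and COL1A1, a fibroblast collagen gene, from 9 and 16 to 23 and 41. Lower were ACTA2, a smooth muscle actin, and the macrophage marker CD68, from 603 and 666 to 504 and 545. LYZ, PECAM1 and PDGFRB did not pass in counts, and PDGFRB, a pericyte receptor, passed in TPM, from 2.93 and 2.01 to 9.36 and 4.94. The part of these markers in the results below was not tested.

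CPSF6 itself (chr12:69239537-69274358, GRCh38, plus strand) had a normalized count of 2147 and 2082 in the siNC libraries and of 768 and 718 in the siCPSF6 libraries. Both silenced libraries lay far below both controls, a log2 difference of -1.51 (SE 0.09, limma adjusted p = 1.28e-08), and TPM fell from a mean of 29.6 to 10.2. About 0.351 of the control level remained, taken as the ratio of mean normalized counts. The other subunits moved much less in counts. NUDT21 (chr16), the UGUA-binding subunit, was at 4479 and 4316 in siNC and at 3525 and 3527 in siCPSF6, a log2 difference of -0.32 (SE 0.06, adjusted p = 0.000861). The TPM of NUDT21 went the other way, from a mean of 86.4 to 184, which is described with the length measurements. CPSF7, the paralogue of CPSF6, was at 1653 and 1773 in siNC and at 1349 and 1578 in siCPSF6, a fall of -0.23 (SE 0.09, adjusted p = 0.0412). This call did not hold without siNC replicate 1, siNC replicate 2 or siCPSF6 replicate 1 (adjusted p = 0.0616, 0.233 and 0.393), nor in TPM (0.0685), and CPSF7 overlaps another annotated gene on its own strand. Fewer CPSF6 molecules per cell and fewer cells with CPSF6 mRNA cannot be told apart in bulk RNA.

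Silencing moved a large share of the transcriptome by small amounts and a small share by large ones. Of 12939 genes with a mean normalized count of at least 20, limma called 5557 (42.9%) at an adjusted p below 0.05, of which 2825 (21.8%) were higher and 2732 (21.1%) lower in siCPSF6. The median absolute log2 difference was 0.52 among the higher and 0.56 among the lower genes, and 57.8% and 52.6% of them differed by less than 1.5-fold. At least 2-fold differences were found for 392 higher and 477 lower genes, and at least 4-fold for 45 and 43. In TPM, 4233 genes (32.7%) were called, 2233 (17.3%) higher and 2000 (15.5%) lower. The tables gave the same call for 1868 higher and 1820 lower genes, and opposite calls for 33 genes lower in counts and higher in TPM and for 1 gene the other way round. The upper-quartile scaling sets the balance of directions: scaling to the spike-ins moved the median difference of all genes from 0.00 to -0.10, left 3457 calls and made 35.8% of the calls higher, against 50.8%. Differences are of log2(count + 1), so those of genes with few counts are understated.

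The balance of calls differed by biotype, which is described here without a test. Of 11726 protein-coding genes tested, 23.0% were higher and 21.2% lower, with a median log2 difference of 0.01. Of 261 antisense RNAs, 19 were higher and 69 lower (7.28% and 26.4%), with a median of -0.21. Of 250 long intergenic noncoding RNAs, 28 were higher and 50 lower (11.2% and 20%), with a median of -0.19, so their lower share was near that of all genes and their higher share below it. Of 120 processed transcripts, 12 were higher and 31 lower (10% and 25.8%, median -0.08). Processed pseudogenes were called less often in both directions, with 13 of 132 higher and 5 lower (9.85% and 3.79%, median 0.06). Of all genes, 21.8% were higher and 21.1% lower. Whether reads were counted by strand is not given in the sources used here, so reads of an antisense RNA and of the gene opposite cannot be told apart.

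The large rises included secreted proteins, matrix genes and regulators of RNA and signalling. PLA2G3 (chr22:31134809-31140607), a secreted phospholipase A2, had 21 and 16 normalized counts in siNC and 162 and 143 in siCPSF6, a log2 difference of 2.99 (SE 0.24, adjusted p = 2.86e-07). VCAN (chr5:83471465-83582303), the matrix proteoglycan versican, rose from 190 and 214 to 1145 and 1122 (2.48, SE 0.14). APOA4, an apolipoprotein of triglyceride-rich particles, rose from 72 and 40 to 283 and 296 (2.41, SE 0.23). In these 3 genes every silenced library lay above both controls by several fold, but they were picked for large rises that passed. RBM15, an adaptor of the m6A methyltransferase complex, rose from 203 and 193 to 1097 and 990 (2.39, SE 0.12, adjusted p = 3.49e-09). HABP4, a hyaluronan- and RNA-binding protein, rose from 248 and 228 to 1171 and 1154 (2.28, SE 0.10). IGFBP4, which binds insulin-like growth factors, rose from 1211 and 1354 to 5972 and 5728 (2.19, SE 0.09). Replicates of these genes differed by far less than the groups did, which comes with picking large rises that passed.

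Further large rises spanned several functions. OGFR, the opioid growth factor receptor, rose from 728 and 650 to 2988 and 2948 (2.11). KREMEN2, a receptor for the Wnt inhibitor Dickkopf, rose by 2.13, MAPK8IP2, a scaffold of JNK signalling, by 2.10 and EPB41L1, a membrane skeleton protein, by 2.05. CHST14, which sulfates dermatan sulfate, rose from 254 and 246 to 1016 and 863 (1.90), and LOXL3, a lysyl oxidase that acts on matrix proteins, from 32 and 21 to 88 and 119 (1.94). The glucuronosyltransferase UGT2B10 was at 796 and 499 in siNC and at 2805 and 2052 in siCPSF6 (1.93, SE 0.30, adjusted p = 0.00217), with more spread between replicates than the others. LONRF3, a RING finger protein, rose from 72 and 68 to 247 and 260 (1.84). VCAN, APOA4, RBM15, HABP4, KREMEN2, OGFR, MAPK8IP2, EPB41L1 and LOXL3 have an annotated gene on the opposite strand.

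**Figure D1:**
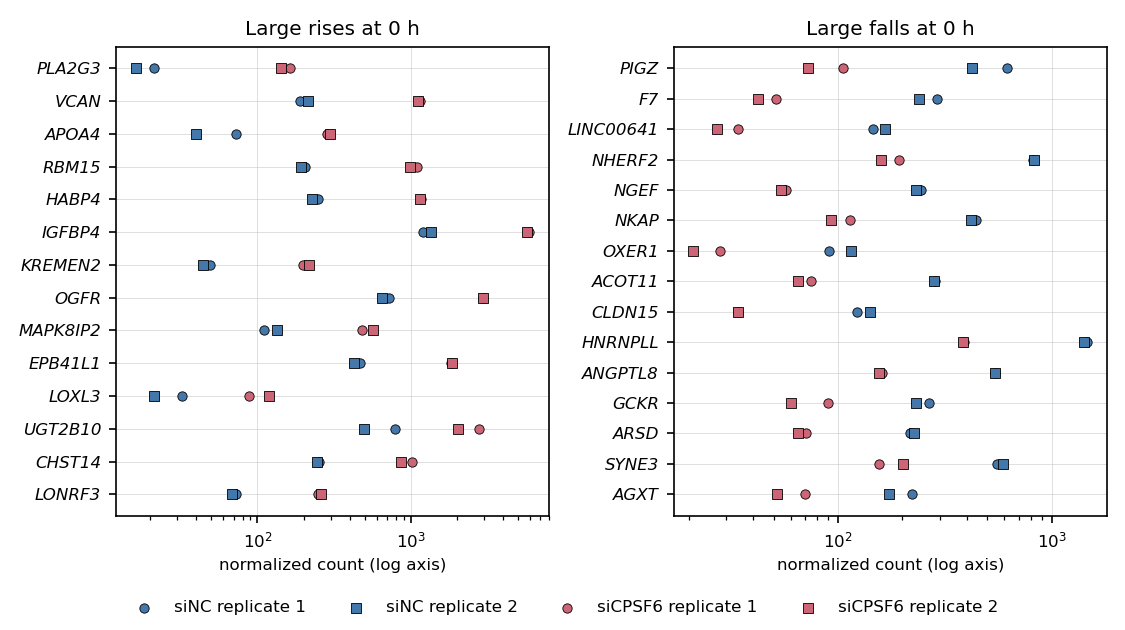
Normalized counts on a log axis in the 4 libraries of 0 h for the 14 genes with large rises and the 15 genes with large falls that are reported, with siNC in blue, siCPSF6 in red, replicate 1 as circles and replicate 2 as squares. For every gene both siCPSF6 points lie on the same side of both siNC points, as for PLA2G3 (21 and 16 against 162 and 143). The genes were picked for large differences that passed, so this separation comes with the choice.

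The large falls included genes of coagulation and metabolism. The large rises held such genes too, with the apolipoprotein gene APOA4 (2.41) and the glucuronosyltransferase gene UGT2B10 (1.93). F7 (chr13:113105788-113120681), coagulation factor VII, had 291 and 240 normalized counts in siNC and 51 and 42 in siCPSF6, a log2 difference of -2.49 (SE 0.17, adjusted p = 7.7e-08). ANGPTL8, a liver hormone that regulates lipoprotein lipase, fell from 544 and 545 to 161 and 156 (-1.77). GCKR, the regulatory protein of glucokinase, fell from 266 and 231 to 90 and 60 (-1.74), and AGXT, a peroxisomal aminotransferase that detoxifies glyoxylate, from 221 and 173 to 70 and 52 (-1.68). ACOT11, an acyl-CoA thioesterase, fell from 283 and 282 to 75 and 65 (-2.0). In each of these genes that fell the groups did not overlap, but the genes were picked for large falls, so this adds no support.

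Other large falls were in membrane, scaffold and RNA-binding genes. PIGZ (chr3:196946343-196969060), a mannosyltransferase of glycosylphosphatidylinositol anchors, was at 618 and 424 in siNC and at 106 and 72 in siCPSF6 (-2.54, SE 0.26, adjusted p = 4e-05). NHERF2, a PDZ scaffold of membrane transporters, fell from 818 and 827 to 193 and 159 (-2.22). HNRNPLL, a splicing regulator, fell from 1469 and 1412 to 387 and 386 (-1.90, SE 0.12, adjusted p = 2.5e-08). NKAP, a nuclear protein with roles in transcription and splicing, fell from 444 and 421 to 114 and 93 (-2.06), and the noncoding RNA LINC00641 from 145 and 166 to 34 and 27 (-2.32). NGEF, a guanine nucleotide exchange factor, fell by 2.08 on the log2 scale and the oxoeicosanoid receptor gene OXER1 dropped by 2.03. CLDN15, a tight junction claudin, was at 123 and 141 against 34 and 34 (-1.92). ARSD, an arylsulfatase, was at 218 and 226 against 71 and 65 (-1.69), and SYNE3, a protein of the nuclear envelope, at 554 and 589 against 155 and 201 (-1.69). SYNE3 and ARSD also had a shorter apparent length (log2 difference -0.93 and -0.72), and their TPM fell by less than their counts (-0.83 and -1.04). NGEF, NKAP, ACOT11, HNRNPLL, ANGPTL8 and ARSD have annotated genes on the opposite strand.

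The transcripts that gained or lost most TPM were abundant ones, in which moderate folds move many molecules. APOA2, an apolipoprotein of high-density lipoprotein, gained most, from a mean of 7942 to 9816 TPM, although its count difference of 0.46 did not pass without siNC replicate 2 or siCPSF6 replicate 1 (adjusted p = 0.0776 and 0.0875). CALR, the ER chaperone calreticulin, went from 754 to 1717 TPM, FN1, fibronectin, from 2072 to 2936, and TMSB10, an actin-binding peptide, from 1466 to 1993. FN1 passed in TPM but not in counts (log2 difference 0.55, adjusted p = 0.0535). Its counts did pass in limma with the replicate number as a block (adjusted p = 1.96e-08) and with spike-in scaling (0.00722). The mitochondrial mRNAs MT-CO1, MT-ND2 and MT-ND5, which encode subunits of the respiratory chain, were also among the gains. MT-CO1 did not pass in counts (log2 difference 0.19, limma adjusted p = 0.0528), but did with the replicate number as a block (0.00264). None of these mitochondrial mRNAs passed in counts with spike-in scaling. RPL15, a ribosomal protein gene, went from 2007 to 2471 TPM with a count difference of 0.06 (adjusted p = 0.549) and an apparent length difference of -0.31 (adjusted p = 9.79e-05).

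The 8 largest losses of TPM were in genes of varied function, among them a mitochondrial rRNA and a ribosomal protein gene. FTL, the ferritin light chain, fell from a mean of 23100 to 17715 TPM (counts 231186 and 249983 against 198350 and 191260). SERPINA1, alpha-1-antitrypsin, fell from 4105 to 2865 TPM, APOH, a plasma glycoprotein, from 1505 to 923 and DHRS2, a short-chain dehydrogenase, from 3726 to 2349. GPX2, a glutathione peroxidase, fell from 1235 to 788 TPM. APOA1, an apolipoprotein, MT-RNR2, the large mitochondrial rRNA, and RPS15, a ribosomal protein gene, passed in TPM (5210 to 4491, 14705 to 12629 and 3266 to 2808) but not in counts (adjusted p = 0.128, 0.0582 and 0.36). In limma with the replicate number as a block, APOA1 and MT-RNR2 passed in counts (adjusted p = 0.0290 and 0.00153) and RPS15 did not (0.205).

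Many transcripts became shorter as the deposited tables measure it. The ratio of normalized count to TPM tracks the mean length of the transcripts that a gene was assigned, called apparent length here, and each library was centred on its spike-ins. Of 10476 genes with a mean count of at least 100 and a mean TPM of at least 1, 952 (9.09%) were called, 899 (8.58%) shorter and 53 (0.506%) longer in siCPSF6, with a median log2 difference of -0.03 over all genes. By at least 0.5 on the log2 scale, 349 genes were shorter and 7 longer. The 36 spike-ins, whose length is fixed, differed by -0.02 to 0.07. The measure depends on which annotated isoforms the reads were assigned to, and it does not place a poly(A) site. Leaving out any 1 of the 4 libraries left 490 to 567 calls. The split depended on the centring, with 5.57% of the calls longer on spike-ins, 82.2% of 4016 calls on the median over genes and 35.2% of 1148 calls on the median deviation, the last chosen after seeing the data.

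MBNL3 (chrX:132369317-132489968), a muscleblind splicing regulator, had an apparent length difference of -2.26 (SE 0.07, adjusted p = 1.03e-05). Its normalized counts were 13950 and 14494 in siNC and 6475 and 6330 in siCPSF6 (-1.15), while its mean TPM rose from 83.0 to 171. ZNF780A (chr19:40069152-40090938), a zinc finger gene, behaved alike, with a length difference of -2.42 (SE 0.15), counts of 541 and 567 against 276 and 293 (-0.96) and a mean TPM of 8.41 against 22.3. In both genes reads were fewer and the length-corrected level higher in every silenced library. Both were picked for a large fall in the ratio of count to TPM, so this separation comes in part with the choice. NUDT21 had a length difference of -1.48 (SE 0.08) and a TPM difference of 1.09. ACER3, an alkaline ceramidase, fell in counts from 507 and 501 to 339 and 321 (-0.61) and rose in TPM from 4.76 to 9.24, with a length difference of -1.62.

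In other strongly shortened genes the counts did not pass or were higher. RORA, a nuclear receptor, was at 331 and 251 against 327 and 309 (adjusted p = 0.44) with a length difference of -1.76 and a TPM of 2.26 against 8.17. SYNJ2BP, a mitochondrial outer membrane protein, was at 494 and 449 against 406 and 398 (limma adjusted p = 0.0541, or 0.0382 with the replicate number as a block). Its length difference was -1.67 and its TPM 4.68 against 12.2. ZNF264, MFSD14CP and STIMATE-MUSTN1 had length differences of -1.63, -1.68 and -1.84, and none of them passed in counts. LIN7A, a scaffold of cell junctions, went from 8.59 to 32.1 TPM (length -1.71), and SCAI, a suppressor of cell invasion, from 1.11 to 5.48 TPM (length -1.77). Their small rises in counts (0.25 and 0.51) did not hold with spike-in scaling or without siNC replicate 1 or siCPSF6 replicate 1. ZNF780A, STIMATE-MUSTN1, SCAI, RORA, LIN7A and SYNJ2BP overlap another annotated gene on their own strand, so their reads may be shared.

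Across the 899 shorter genes TPM was higher for 441, lower for 82 and not called for 376. Their counts were higher for 194, lower for 272 and not called for 433. Among the 9524 genes whose length did not pass, TPM was higher for 1542 and lower for 1589. Counts of those 9524 were higher for 2312 and lower for 2058. Of all 12939 genes tested, 21.8% were higher and 21.1% lower in counts, and 17.3% and 15.5% in TPM. TPM is divided by the same length estimate, so these counts of calls are not independent of the length call. The shorter genes had long 3′ UTRs in the GENCODE 29 annotation: the median of the longest annotated 3′ UTR was 3063 bases (quartiles 1718 and 4820) in 869 shorter genes with one, 924.5 bases in 52 longer genes and 1383 bases in all 10014 genes. At least 1000 bases were annotated for 85.6% of the shorter and 60.7% of all genes. TGTA, the DNA form of the CFIm element, occurred a mean of 0.949 times in the last 100 bases in the shorter genes and 0.842 times in all genes. These are descriptions of annotated ends, and no test was made.

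With the spike-in centring 53 genes were longer, but most calls were longer when centred on the gene median (82.2% of 4016), and in a fit of the 4 libraries alone 22.4% of 553 calls were. The genes named next were called longer with the spike-in centring. NEAT1 (chr11:65422774-65445540), the noncoding RNA that scaffolds paraspeckles and exists as a short and a long isoform, had counts of 4239 and 6030 in siNC and of 958 and 1459 in siCPSF6 (-2.10, SE 0.24, adjusted p = 0.000385). Its TPM fell from 76.9 to 9.22 and its apparent length rose by 0.87 (SE 0.10). NABP1, a single-stranded DNA binding protein, lengthened by 0.91, and BRWD1, a bromodomain protein, by 0.61, with TPM of 7.16 against 3.99. The clone gene ENSG00000267561 on chromosome 1 had 4 and 1 normalized counts in siNC and 336 and 279 in siCPSF6 (6.60, SE 0.37) and a length difference of 0.77. POLE, the catalytic subunit of DNA polymerase epsilon, lengthened by 0.38 at counts that did not pass (0.04, adjusted p = 0.688), and its TPM fell from 28.8 to 21.6. NEAT1, NABP1, BRWD1 and ENSG00000267561 overlap annotated genes on their own strand.

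**Figure D2:**
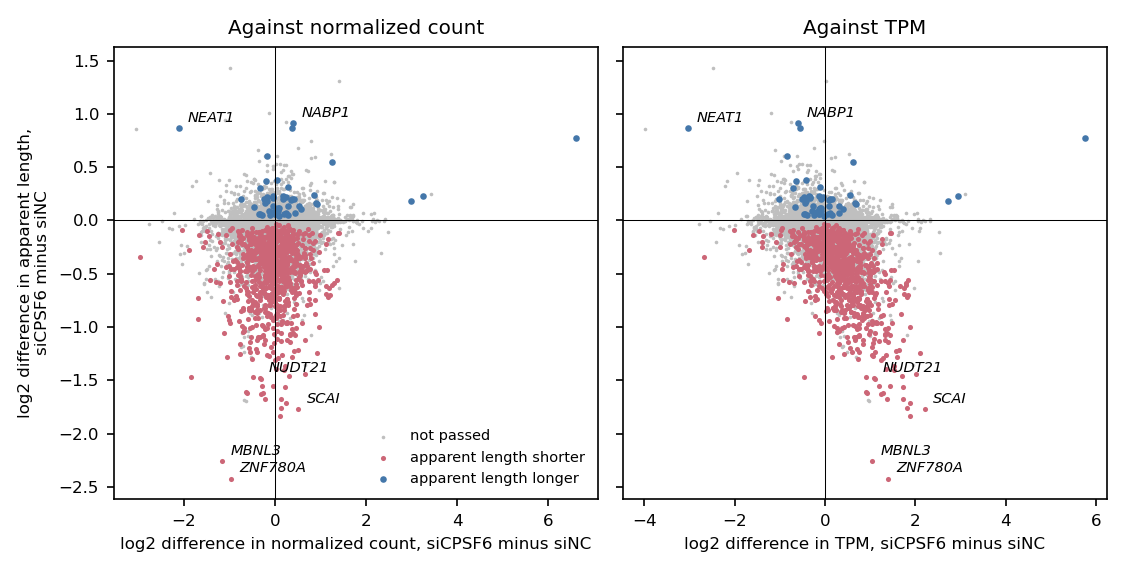
Log2 difference in apparent length (siCPSF6 minus siNC) of the genes tested and reported against the log2 difference in normalized count (left) and in TPM (right), with shorter genes in red, longer genes in blue and genes that did not pass in grey. MBNL3 and ZNF780A lie at length differences of -2.26 and -2.42, left of 0 in counts and right of 0 in TPM.

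Chaperones of the endoplasmic reticulum (ER) rose together. The unfolded protein response is run by the ER sensors IRE1, ATF6 and PERK. IRE1 splices the mRNA of XBP1, and the transcription factors XBP1 and ATF6 act through ER stress response elements (ERSE) in the promoters of chaperone genes. Of 33 ER chaperones and XBP1 or ATF6 targets tested, 21 were higher and 2 lower in siCPSF6 (63.6% and 6.06%, against 21.8% and 21.1% of all genes), with a median log2 difference of 0.47 against 0.00 over all genes. In TPM 20 were higher and 3 lower, and 19 were higher in counts without any 1 of the 4 libraries. ERSE, searched on both strands as CCAAT and CCACG with 9 bases between them, was found in 7 of the 30 members with a RefSeq promoter (250 bases before to 50 after the gene start) and in 22 of 27305 promoters in all (0.0806%). ERSE-II, searched as ATTGG and CCACG with 1 base between them, was in 3 members and in 15 promoters in all (0.0549%). The list was made of ER chaperones and XBP1 or ATF6 targets, so a high share of these elements comes with the list. That share says nothing about the response to siCPSF6, and the background was all RefSeq promoters, not those of tested genes. The matches are shown because HSPA5, CALR and SDF2L1, whose values follow, are among these members. Sequences are from RefSeq (GRCh38.p14), written 5′ to 3′ on the strand given, with the matched motif in capitals, spacer included.
HSPA5 (chr9:125241386-125241414, minus): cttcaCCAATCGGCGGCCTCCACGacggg
CALR (chr19:12938379-12938407, minus): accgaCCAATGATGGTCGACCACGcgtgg
HSP90B1 (chr12:103930211-103930239, plus): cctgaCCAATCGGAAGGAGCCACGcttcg
CRELD2 (chr22:49918549-49918577, minus): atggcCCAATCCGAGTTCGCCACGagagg
ERO1B (chr1:236282178-236282206, plus): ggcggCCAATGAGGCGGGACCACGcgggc
CANX (chr5:179698773-179698801, plus): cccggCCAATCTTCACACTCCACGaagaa
XBP1 (chr22:28800598-28800626, minus): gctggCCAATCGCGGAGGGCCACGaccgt
SDF2L1 (chr22:21642105-21642133, minus): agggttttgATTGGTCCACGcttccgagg
HYOU1 (chr11:119057371-119057399, plus): cggcctgggATTGGACCACGtcacggggc
HERPUD1 (chr16:56932016-56932044, plus): cggacgccgATTGGGCCACGttgggagag

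HSPA5, the ER chaperone BiP, was at 28748 and 28291 normalized counts in siNC and at 56628 and 50184 in siCPSF6 (log2 difference 0.90, SE 0.08, adjusted p = 5.26e-07). CALR rose from 22331 and 22271 to 54832 and 51218 (1.25, SE 0.06, adjusted p = 3.49e-09), and SDF2L1, an ER-resident cofactor of protein folding, from 694 and 715 to 1714 and 1668 (1.26, SE 0.07). Silenced and control libraries did not overlap in any of them, but these genes were picked by their small p, so this adds no support. MANF, a secreted ER stress protein, rose from 1367 and 1411 to 2883 and 2911 (1.06), DNAJC3, a co-chaperone of BiP, from 1078 and 1080 to 2348 and 2347 (1.12) and HYOU1, an ER chaperone of the Hsp70 family, from 10076 and 10210 to 18679 and 17522 (0.83). HSP90B1, the ER chaperone GRP94, rose by 0.71 and the disulfide isomerases PDIA3 and PDIA4 by 0.72 and 0.63. ERO1B, an oxidase that recharges disulfide isomerases, rose from 70 and 60 to 142 and 120 (1.0), and CRELD2, a secreted ER stress protein, by 0.82.

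The 2 members that fell were XBP1, the transcription factor itself, from 8907 and 8596 to 5660 and 5605 (-0.64, SE 0.08, adjusted p = 1.77e-05), and HERPUD1, a component of ER-associated degradation, from 2810 and 2743 to 2149 and 2029 (-0.41, SE 0.07). Both carry a match to ERSE or ERSE-II, as do 8 members that rose. ATF6, the membrane-bound sensor, rose by 0.60. The sensors EIF2AK3 (PERK) and ERN1 (IRE1) had differences of 0.15 and 0.05 and DNAJB9, an XBP1 target, of 0.19, none of which passed. Counts do not separate the spliced from the unspliced XBP1 mRNA. CALR, DNAJC3, HSP90B1, CANX, ATF6 and HERPUD1 overlap an annotated gene on their own strand.

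**Figure D3:**
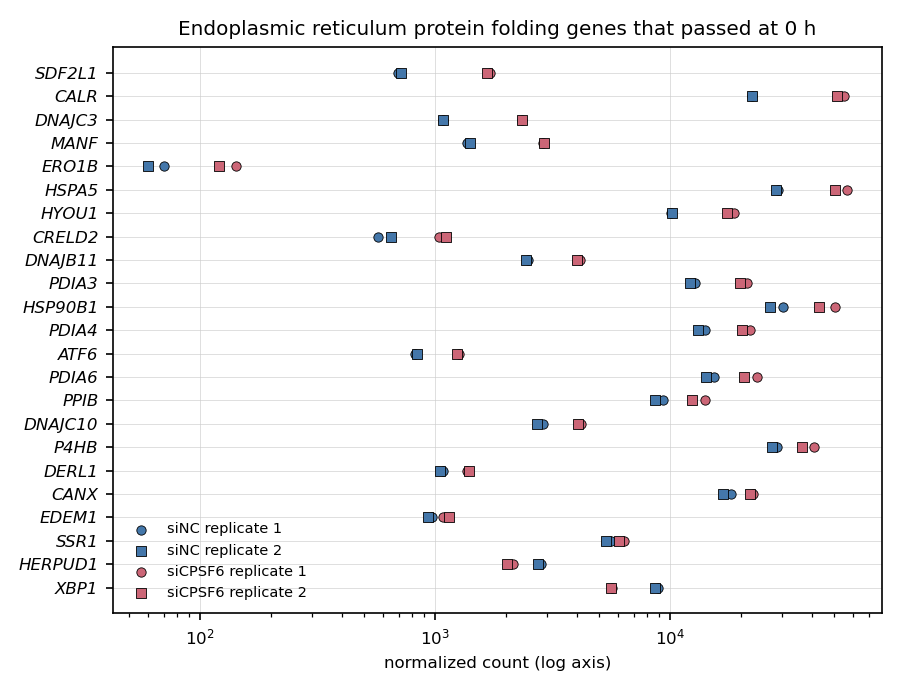
Normalized counts on a log axis in the 4 libraries of 0 h for the 23 ER chaperones and XBP1 or ATF6 targets that passed, with siNC in blue, siCPSF6 in red, replicate 1 as circles and replicate 2 as squares. The red points lie right of the blue ones for 21 genes and left of them for XBP1 and HERPUD1.

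Genes of the integrated stress response, which joins the PERK arm to amino acid supply, were higher in 11 and lower in 6 of 34 tested (32.4% and 17.6%, against 21.8% and 21.1% of all genes, median 0.22). Fits without 1 library called fewer genes over all genes too, which bears on the list counts from such fits, here and below. Without siCPSF6 replicate 1, 7 were higher and 3 lower, and the lower count was 3 and 2 without siNC replicate 1 and 2. SLC7A11, the cystine transporter, rose from 273 and 261 to 593 and 545 (1.09), ERO1A, an ER oxidase, from 1708 and 1327 to 3949 and 3503 (1.30) and MTHFD2, a mitochondrial folate enzyme, by 0.84. WARS1, the tryptophanyl-tRNA synthetase, fell by 0.54 on the log2 scale.

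Extracellular matrix genes and their proteases rose in 18 of 32 members tested and fell in 3 (56.3% and 9.38%, against 21.8% and 21.1% of all genes), with a median of 0.44. Without 1 library, 12 (siCPSF6 replicate 2) to 14 were higher, and 13 with spike-in scaling. MMP2 (chr16:55389700-55506691), the gelatinase that degrades type IV collagen, was at 62 and 70 in siNC and at 734 and 705 in siCPSF6 (3.43, SE 0.13, adjusted p = 7.74e-10). MMP14, the membrane protease that activates MMP2, rose from 409 and 365 to 727 and 778 (0.96), and THBS1, thrombospondin, from 5270 and 4711 to 10296 and 10472 (1.06). The laminin chains LAMB1 and LAMC1 of basement membranes rose by 1.06 and 0.65. HSPG2, the basement membrane proteoglycan perlecan, went the other way, from 2203 and 2429 to 1036 and 1225 (-1.04), as did SPP1, osteopontin (-0.34). MMP2, THBS1 and LAMB1 overlap an annotated gene on their own strand.

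Of 28 integrins, cadherins and junction genes tested, 12 were higher and 3 lower (42.9% and 10.7%, against 21.8% and 21.1% of all genes, median 0.16). With spike-in scaling, which also left fewer calls over all genes (3457), 6 were higher, and 6 were lower with the replicate number as a block. ITGAV, the integrin alpha V chain, rose from 2364 and 2492 to 6599 and 6532 (1.44, SE 0.07, adjusted p = 1.85e-09), and ITGB1, the common beta chain, from 7229 and 6900 to 11679 and 11030 (0.68). TJP3, a tight junction scaffold, fell from 78 and 79 to 18 and 9 (-2.53).

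In the Notch pathway 10 of 22 members were higher and 0 lower by limma (45.5% and 0%, against 21.8% and 21.1% of all genes, median 0.48), and at an unadjusted p below 0.05 it was 11 and 0. Without siNC replicate 2, 6 were higher. ADAM17, a sheddase that cleaves Notch and growth factor precursors, rose from 888 and 930 to 1481 and 1606 (0.76), NOTCH3, a receptor, from 34 and 35 to 97 and 118 (1.61) and HES6, a HES family factor, from 922 and 1048 to 1601 and 1583 (0.70). HES1 and NOTCH1 did not pass (0.55 and -0.08). In TGF-beta and BMP signalling 11 of 34 were higher and 2 lower (32.4% and 5.88%, median 0.21), and 7 were higher without siCPSF6 replicate 1 or 2. Without any 1 of the 4 libraries 1 was lower. The ligand BMP4 rose from 2902 and 2757 to 6287 and 5860 (1.10), the ligand TGFB1 from 783 and 831 to 1451 and 1636 (0.93), the activin antagonist FST from 453 and 433 to 950 and 821 (0.99) and the receptor TGFBR1 by 0.70. ACVR2B, an activin receptor, had an apparent length difference of -1.44 and a TPM difference of 2.02.

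In insulin and IGF signalling 12 of 26 members were higher and 5 lower (46.2% and 19.2%, against 21.8% and 21.1% of all genes, median 0.40), or 3 lower without siNC replicate 2 or siCPSF6 replicate 2. Beside IGFBP4, the kinase AKT1 rose from 1990 and 1891 to 3636 and 3551 (0.89), while the kinase PDPK1, which phosphorylates AKT1, fell from 1951 and 1786 to 1037 and 1077 (-0.82) and the ligand IGF2 from 47308 and 52576 to 32964 and 34090 (-0.57). In the Wnt pathway 12 of 32 were higher and 5 lower (37.5% and 15.6%, median 0.19), but 7 were higher without siNC replicate 1, siNC replicate 2 or siCPSF6 replicate 1, 5 with spike-in scaling, and 2 were lower without siNC replicate 1. The coreceptor LRP6 rose from 895 and 826 to 1886 and 1684 (1.05), and the secreted inhibitor DKK1 fell from 34266 and 32099 to 23780 and 20099 (-0.60). Of 27 receptor tyrosine kinases and ligands, 12 were higher and 5 lower (44.4% and 18.5%, median 0.16): AREG, an EGF receptor ligand, rose from 294 and 302 to 761 and 661 (1.25) and MET, the hepatocyte growth factor receptor, from 1373 and 1298 to 2586 and 2392 (0.90), while EFNA1, an ephrin, fell from 2818 and 2370 to 1538 and 1572 (-0.73). In a list of immediate early and AU-rich mRNAs, 12 of 35 tested were higher and 2 lower (34.3% and 5.71%, median 0.43). FOS, FOSB, EGR2 and EGR3 were among the members not tested. Fewer members were higher when siCPSF6 replicate 1, siNC replicate 1 or siNC replicate 2 was left out. Without any 1 of the 4 libraries 1 was lower. RHOB, a small GTPase, rose from 5212 and 5679 to 8263 and 8762 (0.65), and JUND, an AP-1 subunit, fell from 750 and 766 to 409 and 423 (-0.86). NOTCH3, IGF2 and PDPK1 overlap an annotated gene on their own strand.

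**Figure D4:**
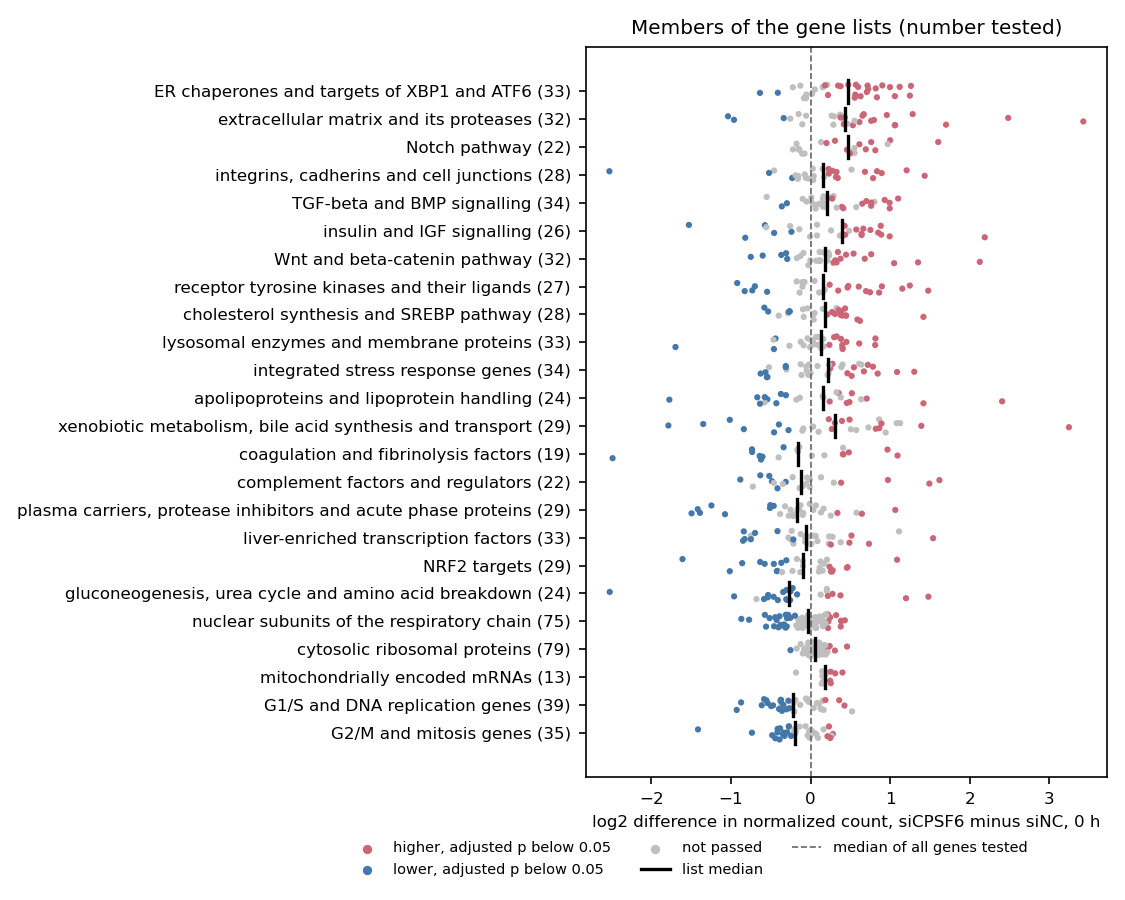
Log2 difference in normalized count (siCPSF6 minus siNC, 0 h) of every tested member of 24 gene lists, with higher genes in red, lower genes in blue, genes that did not pass in grey, the list median as a bar and the median of all genes as a dashed line. ER chaperones, matrix genes and the Notch pathway have medians of 0.47, 0.44 and 0.48, and gluconeogenesis with the urea cycle, G1/S and G2/M genes have medians of -0.28, -0.21 and -0.19.

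Of 24 genes of gluconeogenesis, the urea cycle and amino acid breakdown, 5 were higher and 15 lower (20.8% and 62.5%, against 21.8% and 21.1% of all genes, median -0.28), or 8 lower with spike-in scaling. The higher count was 3 without siNC replicate 2 and 2 without siCPSF6 replicate 1. CPS1, which starts the urea cycle, fell from 815 and 761 to 379 and 431 (-0.96), and GNMT, a methyltransferase of methionine metabolism, from 53 and 48 to 9 and 7 (-2.52). HGD, an enzyme of tyrosine breakdown, fell from 1936 and 1812 to 1279 and 1309 (-0.53). GPT2, the mitochondrial alanine aminotransferase, rose from 2841 and 2524 to 6316 and 5996 (1.20). CPS1 overlaps an annotated gene on its own strand.

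Secreted liver proteins went both ways. Among 29 plasma carriers, protease inhibitors and acute phase proteins, 3 were higher and 8 lower (10.3% and 27.6%, against 21.8% and 21.1% of all genes, median -0.16), so the lower share was near the background, and 13 were lower and 6 higher with the replicate number as a block. HP, haptoglobin, fell from 2152 and 1964 to 877 and 856 (-1.25, SE 0.08, adjusted p = 5.56e-08), and TTR, transthyretin, rose from 429 and 504 to 953 and 996 (1.07). ALB did not pass (0.07). Among 19 coagulation genes 5 were higher and 7 lower (26.3% and 36.8%), or 3 higher without siNC replicate 2: FGB, the fibrinogen beta chain, rose from 1185 and 1065 to 2208 and 2607 (1.09) and PROC, protein C, fell from 2841 and 2953 to 1945 and 1820 (-0.62). Apolipoproteins and lipoprotein genes split evenly, with 8 higher and 8 lower of 24 (33.3% each). APOB, the structural protein of VLDL, rose from 140855 and 131415 to 225507 and 218616 (0.71), and APOC3, an inhibitor of triglyceride clearance, fell from 1174 and 1117 to 689 and 752 (-0.67).

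Among 33 liver-enriched transcription factors 5 were higher and 7 lower (15.2% and 21.2%, against 21.8% and 21.1% of all genes, median -0.06), which is no more often than genes in general, or 3 higher without siNC replicate 2 or siCPSF6 replicate 1. HNF4A, a master regulator of hepatocyte genes, fell from 6410 and 6517 to 3783 and 3904 (-0.75, SE 0.07, adjusted p = 1.2e-06). HLF, a PAR bZIP factor, rose from 2913 and 2371 to 7970 and 7342 (1.54). HNF4A overlaps another gene on its own strand. In xenobiotic and bile acid metabolism 10 of 29 were higher and 7 lower (34.5% and 24.1%, median 0.31), and 6 were higher without siCPSF6 replicate 1. UGT2B7, a glucuronosyltransferase, rose from 257 and 262 to 679 and 687 (1.39), and ABCG5, which exports sterols into bile, fell from 396 and 371 to 137 and 164 (-1.35). UGT1A1, which conjugates bilirubin, was at 11 and 18 against 172 and 118 (3.25), but it shares exons with the other genes of its locus, and UGT2B7 also overlaps an annotated gene on its own strand.

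Lipid synthesis genes had mixed calls. Of 28 cholesterol synthesis and SREBP genes 13 were higher and 5 lower (46.4% and 17.9%, against 21.8% and 21.1% of all genes, median 0.18), but with spike-in scaling 3 were higher and 3 lower, and without siNC replicate 2 or siCPSF6 replicate 1 the lower count was also 3. FDFT1, squalene synthase, rose from 8919 and 8388 to 13190 and 12845 (0.59), while SREBF2, the transcription factor of the pathway, fell from 5282 and 5399 to 3640 and 3745 (-0.53). Of 36 fatty acid genes 12 were higher and 9 lower (33.3% and 25%, median -0.03): ELOVL6, a fatty acid elongase, rose from 914 and 818 to 2428 and 2174 (1.41). SREBF2 overlaps an annotated gene on its own strand.

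Antioxidant and iron genes also went both ways. Of 29 NRF2 targets 7 were higher and 10 lower (24.1% and 34.5%, against 21.8% and 21.1% of all genes, median -0.10), and the higher count was 4 without siNC replicate 2 or siCPSF6 replicate 1 and 2 with spike-in scaling. AKR1B10, an aldo-keto reductase, fell from 871 and 1196 to 355 and 314 (-1.61), and NQO1, a quinone reductase, from 14238 and 15051 to 10844 and 10432 (-0.46, SE 0.07, adjusted p = 5.45e-05). NQO1 also had a shorter apparent length (-0.19, SE 0.01) and a TPM of 795 against 626. TFRC, the transferrin receptor, rose from 8142 and 6915 to 14415 and 12721 (0.85).

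Of 35 G2/M and mitosis genes 4 were higher and 15 lower (11.4% and 42.9%, against 21.8% and 21.1% of all genes, median -0.19), and of 39 G1/S and replication genes 3 were higher and 16 lower (7.69% and 41.0%, median -0.21). These counts rest on small differences, and without 1 library fewer genes were called overall (3936 to 4172 in place of 5557). Leaving out siNC replicate 1, siNC replicate 2, siCPSF6 replicate 1 or siCPSF6 replicate 2 left 7, 8, 7 and 6 lower and 1, 1, 2 and 1 higher G2/M genes and 11, 9, 11 and 11 lower G1/S genes. With spike-in scaling 6 and 12 were lower, and with the replicate number as a block 5 G1/S genes were higher. HMMR, a spindle-associated hyaluronan receptor, fell from 1238 and 1102 to 437 and 438 (-1.41, SE 0.10, adjusted p = 1.26e-07), ANLN, anillin of the contractile ring, from 2725 and 2612 to 1640 and 1563 (-0.74) and CDK1, the mitotic kinase, from 2069 and 2149 to 1552 and 1615 (-0.41). MKI67 and PLK1, both widely used proliferation markers, did not pass. Among G1/S genes CCND1, cyclin D1, fell from 11571 and 13039 to 7908 and 8492 (-0.58) and TK1, thymidine kinase, from 3692 and 3873 to 2387 and 2561 (-0.61).

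The cell cycle homology region (CHR) motif, searched as TTTGAA on both strands, was found in 19 of 29 G2/M genes with a RefSeq promoter (65.5%), in 4212 of 27305 promoters in all (15.4%) and in 2 of 30 ER genes (6.67%). These shares describe the lists and not their response to siCPSF6. A match in each of 3 genes that fell is shown in capitals, from RefSeq (GRCh38.p14), plus strand. Further matches are left in lower case: tttgaa in HMMR, and ttcaaa, the motif on the opposite strand, in ANLN. MKI67 and PLK1, which did not pass, hold a match too.
HMMR (chr5:163460592-163460621): aatgtggggagaTTTGAAtttgaaaccggt
ANLN (chr7:36389830-36389859): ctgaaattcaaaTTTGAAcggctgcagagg
CDK1 (chr10:60778158-60778187): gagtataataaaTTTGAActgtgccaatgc

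Nuclear genes of the respiratory chain were higher in 9 and lower in 20 of 75 members (12% and 26.7%, against 21.8% and 21.1% of all genes, median -0.03), a lower share near the background. The higher count was 5 without siNC replicate 1, siNC replicate 2 or siCPSF6 replicate 1 and 14 with the replicate number as a block, and the lower count was 13 without siNC replicate 2. NDUFS1, a complex I subunit, fell from 2957 and 2779 to 1631 and 1509 (-0.87, SE 0.08, adjusted p = 9.96e-07), and the complex I subunits NDUFB9 and NDUFB5 fell from 2066 and 2190 to 1294 and 1198 (-0.77) and from 784 and 728 to 481 and 535 (-0.57). Cytosolic ribosomal protein genes hardly moved: 5 of 79 were higher and 1 lower (6.33% and 1.27%), with a median of 0.06 in counts, -0.05 in TPM and -0.04 with spike-in scaling, so their direction depends on the scaling. Without siNC replicate 1, siNC replicate 2, siCPSF6 replicate 1 or siCPSF6 replicate 2 the higher count was 3, 2, 2 and 10, and with the replicate number as a block it was 12. NDUFS1 overlaps another gene on its own strand.

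RNA-processing genes showed a few strong changes. Of 22 factors of 3′ end processing 2 were higher and 7 lower (9.09% and 31.8%, against 21.8% and 21.1% of all genes, median -0.07). The lower ones include CPSF6, the silenced gene, whose call was set by the experiment. Beside CPSF6, FIP1L1, which recruits poly(A) polymerase, fell from 857 and 780 to 453 and 426 (-0.89, SE 0.19, adjusted p = 0.00123). Without siNC replicate 1 the lower count was 4. In the m6A machinery, of which 19 members were tested, RBM15 rose while ZC3H13, another member of the writer complex, fell from 1348 and 1354 to 495 and 459 (-1.50, SE 0.12, adjusted p = 2.03e-07). Among 35 SR and hnRNP genes 10 were shorter in apparent length, against 8.58% of all genes tested for it. In TPM 4 were higher and 5 lower, against 17.3% and 15.5% of all genes. In normalized counts 5 were higher and 10 lower (14.3% and 28.6%). The higher count was 3 without siNC replicate 1 or 2, 2 without siCPSF6 replicate 1 or 2 and 8 with the replicate number as a block. TRA2A, a splicing activator, fell by 0.56 on the log2 scale. FIP1L1 overlaps another gene on its own strand.

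The later times show how far the 0 h differences were also present in other cells of the same experiment. At 3 and 6 h in actinomycin D, 55.3% and 55.7% of genes were called. Of the 392 genes higher by at least 2-fold at 0 h, 352 were called higher at 3 h and 300 at 6 h. Of the 477 lower genes, 434 and 365 were called lower again. Of all genes, 26.2% were called higher and 29.1% lower at 3 h, and 27.0% and 28.6% at 6 h. The fit gives each gene 1 spread for all 12 libraries, so the calls at 0, 3 and 6 h are not independent. The test of the change itself, the difference at 3 h minus that at 0 h, called 387 genes (2.99%), 292 (2.26%) towards higher and 95 (0.734%) towards lower values in siCPSF6. That count was 1025 with the replicate number as a block, 106 to 215 without 1 library (lowest without siCPSF6 replicate 1 at 0 h), 104 with spike-in scaling and 54 in TPM. The same test at 6 h called 3153 (24.4%), 1547 (12.0%) and 1606 (12.4%) in these directions. That balance depends on the scaling: with spike-in scaling 964 were called, 74.8% of them higher, and in TPM 1596, 66.5% of them higher, and without siCPSF6 replicate 1 at 0 h 2017 were called. Both use the same 0 h libraries. Of genes called at 0 h, 219 changed by 3 h and 1685 by 6 h, of which 20 and 292 had the opposite call at the later time.

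CPSF6 itself was lower by 2.19 and 2.16 on the log2 scale at 3 and 6 h, a larger difference than at 0 h (adjusted p of the change 0.00815 and 0.00139). PLA2G3 and MMP2 kept their differences, with 2.88 and 3.13 for PLA2G3 and 3.32 and 3.02 for MMP2, and no change of the difference passed. RBM15 had 2.39 at 0 h, 0.59 at 3 h and 0.47 at 6 h. HABP4 had 2.28, 2.40 and 0.51 (adjusted p of the change by 6 h 1.39e-06) and LONRF3 1.84, 1.27 and 0.00 (7.62e-05). HP had -1.25, -1.24 and -0.24 (4.16e-05), and GNMT -2.52, -2.15 and -0.14 (0.000944). The difference of DKK1 changed sign, with -0.60, -0.01 and 1.63 (1.05e-07).

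**Figure D5:**
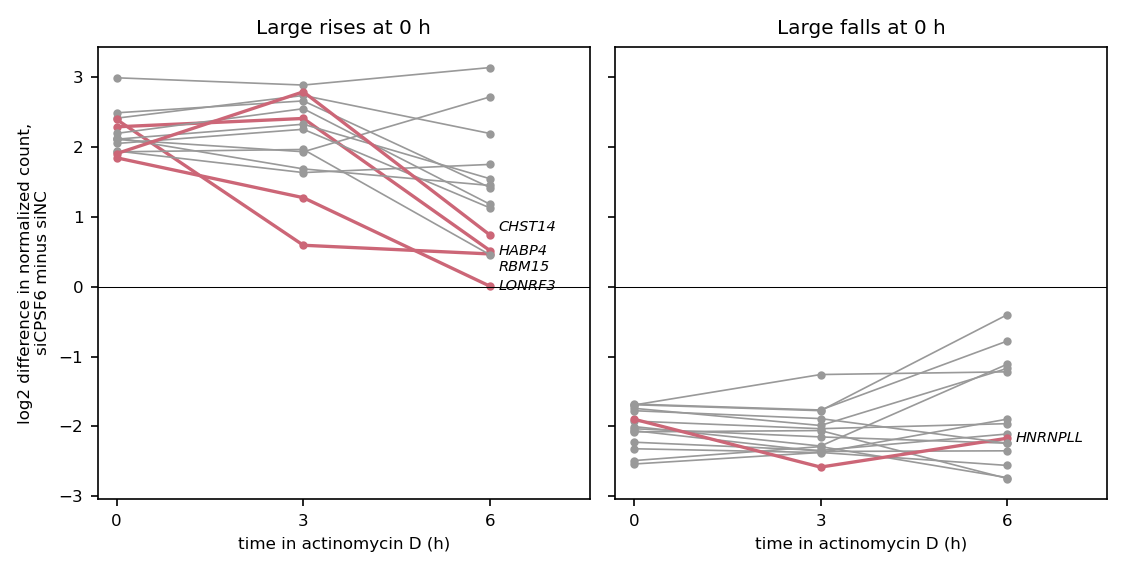
Log2 difference in normalized count (siCPSF6 minus siNC) at 0, 3 and 6 h in actinomycin D, with 1 line per gene, for the 14 large rises (left) and the 15 large falls (right) that are reported. RBM15, CHST14, HABP4, LONRF3 and HNRNPLL are drawn in red: RBM15 goes from 2.39 to 0.59 by 3 h, LONRF3 to 0.00 by 6 h.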

How the data were processed

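Libraries made from total RNA of HepG2 cells, as described above, were sequenced by the submitters. Per the submitters' processing notes, STAR and RSEM were used with genome build hg38; for the annotation, the versions and whether counting used the strand, the sources used here give nothing. The deposited values were a score and TPM per gene. The score is the authors' normalized count, scaled to a common upper quartile and rounded, so no count model was used, and TPM was used as deposited. Neither table gives the read depth, so no counting interval is given.

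The 12 libraries (6 groups of 2) were fitted together with limma 3.58.1 (R 4.3.3) with trend and robust settings and 1 mean per group, leaving 6 residual degrees of freedom, on log2(count + 1) or log2(TPM + 0.1), for genes with a mean normalized count of at least 20. P-values were adjusted by Benjamini-Hochberg over all genes tested and called below 0.05. Apparent length was log2((count + 1)/(TPM + 0.1)) minus the library's median over 36 spike-ins with a mean of at least 100, for genes with a mean count of at least 100 and a mean TPM of at least 1. Changes over time were interaction terms in the same fit. The fits were tested on simulated data.

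Of 22148 genes in the tables, 22144 had a symbol and 21694 matched GENCODE 29, from which biotypes, positions (GRCh38), overlaps and 3′ UTRs were taken. Genes were named by a rule: the CFIm subunits, the 15 largest rises and 15 largest falls in counts (mean count at least 100, same call in TPM, no overlap on their own strand), the 8 largest gains and losses of TPM, the 10 largest shortenings and lengthenings, and up to 5 members of each of 38 gene lists with the smallest p. Not every gene picked by this rule is reported here. Other members named as examples (such as XBP1, HERPUD1, HYOU1, HSPG2, TJP3, ERO1A, MET and CD14) were chosen after their values were seen. Members and lists were chosen with earlier results of these data known. No set test was made.

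Libraries with the same replicate number deviated together (correlation 0.108 to 0.236 over 15 pairs of groups, 0.221 for the 0 h groups), which pairs them by their values. No shared day or batch is named in the labels. Alternatives were other pseudocounts, filters and scalings, no trend or robust settings, the replicate block, fewer libraries in the fit, TPM in place of counts and leaving out each library.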

Additional observations from a re-analysis of the deposited data

Results flagged for a closer look

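The siCPSF6 difference of 387 genes changed between 0 and 3 h in actinomycin D, and that of 3153 genes between 0 and 6 h, by limma's test of the interaction at an adjusted p below 0.05. Both counts depend on the processing: the first was 106 to 215 without 1 library, 104 with spike-in scaling and 54 in TPM, and the second 964 with spike-in scaling and 1596 in TPM. Among the genes with large rises or falls at 0 h, 3 changed by 3 h. The difference of RBM15, a subunit of the m6A writer complex, was smaller by -1.80 on the log2 scale at 3 h than at 0 h (SE 0.17, adjusted p = 0.000155). The difference of CHST14, a dermatan sulfotransferase, was larger by 0.88 (SE 0.13, adjusted p = 0.00282), although at 6 h it was smaller than at 0 h (0.74 against 1.90). HNRNPLL, a splicing regulator that was lower at each time, had a difference lower by -0.69 at 3 h (SE 0.17, adjusted p = 0.0381).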

How the results depend on the processing

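The fall of CPSF6 was called in every alternative, between -1.46 and -1.61. With spike-in scaling the called genes were 3457 in counts (5557 as reported) and 2428 in TPM (4233), and the changes by 3 h and 6 h were 104 (95.2% higher, against 75.5%) and 964 (74.8% higher, against 49.1%). In TPM those changes were 54 and 1596 (66.5% higher), and in a fit of the 8 libraries of 0 and 3 h the change by 3 h was 672. Without 1 library, calls were 3936 to 4172 in counts, 2671 to 2858 in TPM, 490 to 567 in length, 106 to 215 for the change by 3 h and 2017 to 3063 for that by 6 h. Length calls were 4016 when centred on the gene median, 1148 on the median deviation and 553 in a fit of the 4 libraries (22.4% longer, against 5.57%). With the replicate number as a block, calls were 6549 in counts, 5066 in TPM, 848 in length, 1025 for the change by 3 h and 4395 for that by 6 h; the pairing moved no count of all genes except the change by 3 h by over 1.5 times. Directions reversed in TPM for NUDT21 (1.09), ZNF780A (1.39), MBNL3 (1.04), SYNJ2BP (1.38), ZNF264 (1.25), ACER3 (0.94), RPL22 (0.27), NABP1 (-0.59), PLCXD2 (-0.56), POLE (-0.41) and MED13L (-0.10). Their apparent length differed in the direction opposite to TPM by construction, since it is the count divided by TPM. SYNJ2BP, ZNF264, PLCXD2 and POLE did not pass in counts as reported, and PLCXD2 and MED13L did not pass in TPM. Directions also reversed with spike-in scaling for RPL15 (-0.038) and POLE (-0.059), and without 1 library for RPL15 (-0.015 without siNC replicate 2, -0.0034 without siCPSF6 replicate 1 and up to 0.14), RORA (-0.058 without siNC replicate 2, up to 0.34) and POLE (-0.031 without siCPSF6 replicate 2, up to 0.11), none of which passed in counts as reported. Of 216 named genes that passed, 171 kept their call in every alternative. With 2 libraries a group and no read depth, small differences and genes with low counts are measured least precisely.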
